A study of Mus musculus with 6 samples.

Results

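Collagen chains are modified, folded and trimmed by a small set of enzymes and chaperones, and 10 genes of that set were followed here in mouse ADSCs, primary stromal cells derived from fat. They were the prolyl 4-hydroxylase subunits P4ha1, P4ha2 and P4ha3, the lysyl hydroxylases Plod1, Plod2 and Plod3, the prolyl 3-hydroxylation partner Crtap, the collagen chaperone Serpinh1, the procollagen C-proteinase Bmp1 and its enhancer Pcolce. They were picked by name for this function, with earlier results of these data known. All 10 were found among the 22186 genes of the deposited expression table. ADSCs, which are fibroblast-like, had been co-cultured with regulatory T cells (Treg) for 48 h (Treg co-culture, n = 3) or kept without them (control, n = 3), and both groups carried the wild-type genotype. The labels give each library a batch from 1 to 3, and each batch holds 1 library of either group. The strain, sex and age of the mice are not given in the labels, nor whether the replicates were separate cultures or animals, so the p-values cover only the spread among these libraries, and that spread may be technical. No group was co-cultured with another cell type, so an effect of Treg and an effect of co-culture with any cell cannot be told apart.

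A procollagen chain enters the endoplasmic reticulum (ER) and is hydroxylated before it folds. Hydroxylation of prolines at position 4 lets the triple helix stay folded at body temperature, and hydroxylation of lysines prepares sugar attachment and the cross-links formed later outside the cell. Both reactions are run by dioxygenases that use oxygen, iron, 2-oxoglutarate and ascorbate. The folded molecule is escorted by a chaperone, and after secretion its end peptides are cut off so that it can assemble into fibrils. In stromal cells and fibroblasts, which make most of the fibrillar collagen of a tissue, these genes are strongly expressed.

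Expression was deposited as TPM values, shares of the transcripts of a library that are corrected for gene length, so levels can be compared between genes, but the depth of sequencing is unknown and counting error cannot be stated. Stromal markers were present in every library: the summed TPM of 10 adipose stromal markers was 2592 to 2624 in Treg co-culture and 2619 to 2668 in control libraries. The near-equal sums rest largely on Itgb1, at 1115 TPM after co-culture and 1057 TPM in controls, and single markers moved: 6 of the 10 fell, among them Pdgfra (by 27.1%) and Cd34 (by 28.4%), and 3 rose, among them Cd44 (by 50.2%). Of 10 T cell and Treg markers, 7 were listed at 0 in all 6 libraries (Cd3e, Cd3d, Cd3g, Cd4, Il2ra, Ctla4 and Cd2), and the list summed to 1.45 to 1.87 TPM in Treg co-culture and 1.08 to 1.58 TPM in control libraries. All 9 skeletal muscle markers rose, with sums of 3110 to 3184 TPM after co-culture and 1189 to 1221 TPM in controls. Macrophage markers summed to 70.3 to 84.2 TPM in co-culture and 97.9 to 105 TPM in control libraries, and 1 of 9 tested fell. That was Lyz2, the largest part of the sum, at 44.7 TPM after co-culture and 65.9 TPM in controls, and the other 8 did not pass. Endothelial markers summed to 28.8 to 30.1 TPM in co-culture and 32.8 to 35.5 TPM in control libraries, with 1 of 4 tested higher and 2 lower. Adipocyte markers summed to 86.3 to 96.2 TPM in co-culture and 109 to 119 TPM in control libraries, 3 of 4 tested fell, and Lep was listed at 0 throughout. That sum was mostly Fabp4, at 70.9 TPM after co-culture and 93.6 TPM in controls. The Treg co-culture 1 library stood apart in liver and adult heart transcripts, with a sum of 103 TPM against at most 0.949 TPM in Treg co-culture 2 and 3 and 1.27 TPM in controls. The part of these other cell types in the results below was not tested, and in such bulk samples fewer cells of a type and less RNA per cell cannot be told apart.

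After Treg co-culture, 7 of the 10 genes fell and 2 rose. The lysyl hydroxylase Plod2 and the procollagen cleavage enhancer Pcolce fell by 28.9% and by 26.1% in mean TPM. P4ha1, Plod1, Plod3, Crtap and Serpinh1 fell by 3.77% to 10.1%. Bmp1 and P4ha3 rose by 13.0% and 12.6%, and P4ha2 did not pass the test. All 10 passed the filter on low values. Calls come from a limma fit of log2(TPM + 1) across the 12405 genes that averaged 1 TPM or more, at a Benjamini-Hochberg adjusted p of 0.05. In that fit 18.0% of all genes tested were called lower and 19.8% higher, and the ranges of the groups did not overlap, in the lower direction for 24.0% of genes and in the higher direction for 25.3%. The members were all abundant, and among the 1700 genes at or above the level of the lowest member, P4ha3, 27.1% were called lower and 32.8% higher. The median log2 fold change was -0.12 over the 10 members and 0.00 over all genes tested, and the median size of the change, sign left out, was 0.15 for both. For the 7 lower and the 2 higher genes the ranges of the groups did not overlap. It follows that within each batch the co-culture library lay below its control for the lower genes and above it for the higher ones. P4ha2 was lower in batches 1 and 3 and higher in batch 2. The summed TPM of the 10 genes was 5189, 5319 and 5274 in Treg co-culture 1 to 3, against 5735, 5854 and 5827 in control 1 to 3. The groups did not overlap (exact two-sided permutation p = 0.1, the smallest that 3 against 3 libraries allow). This sum was chosen after the values were seen, and it is no result separate from the single genes. Serpinh1 was its largest part, with means of 2769 TPM after co-culture and 2878 TPM in controls.

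**Figure D1:**
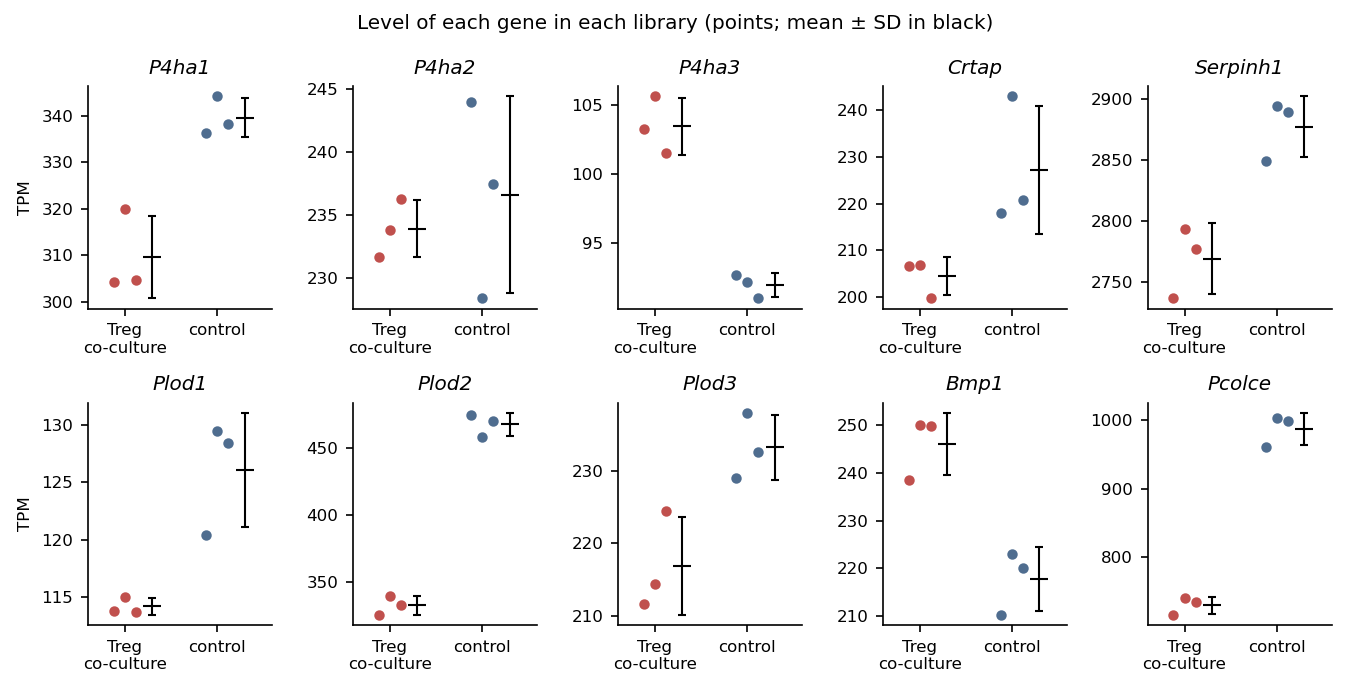
TPM (y axis, a separate range that does not start at 0 in each panel) of the 10 genes in the 3 Treg co-culture libraries (red) and the 3 control libraries (blue), with the mean ± SD in black. The co-culture points lie below all control points for 7 genes, above them for P4ha3 and Bmp1, and among them for P4ha2.

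The prolyl 4-hydroxylase is a tetramer of catalytic alpha subunits, encoded by P4ha1, P4ha2 or P4ha3, and the beta subunit P4hb, which is also a protein disulfide isomerase. P4ha1 (NCBI Gene 18451, chromosome 10), the main alpha subunit of most cells, had 304, 320 and 305 TPM in Treg co-culture 1 to 3, against 336, 344 and 338 TPM in control 1 to 3. Every co-culture library lay below every control library, and the log2 fold change was -0.13 (limma adjusted p = 0.00338, SE 0.03). P4ha2 (18452, chromosome 11), the alpha subunit known from cartilage and bone, had 232, 234 and 236 TPM in co-culture libraries, within the 244, 228 and 237 TPM of controls. Its log2 fold change was -0.02, with a 95% interval from -0.08 to 0.05. The least abundant of the 3, P4ha3 (320452, chromosome 7), moved the other way, with 103, 106 and 102 TPM in co-culture libraries and 92.7, 92.1 and 90.9 TPM in controls. The groups did not overlap, and the log2 fold change was 0.17 (limma adjusted p = 0.00265, SE 0.03).

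Among the alpha subunits, the share of P4ha1 was lower and that of P4ha3 higher after co-culture. P4ha1 made up 47.6%, 48.5% and 47.4% of the summed P4ha TPM in Treg co-culture 1 to 3, against 50.0%, 51.8% and 50.7% in control 1 to 3. P4ha3 made up 16.2%, 16.0% and 15.8% in co-culture libraries and 13.8%, 13.9% and 13.6% in controls. Neither share overlapped between the groups (exact two-sided permutation p = 0.1 each). The P4ha2 share averaged 36.2% ± 0.659 after co-culture and 35.4% ± 0.970 in controls (SD, n = 3 each; exact two-sided permutation p = 0.5), and its groups overlapped. P4hb, at 1328 ± 7.91 TPM after co-culture and 1270 ± 12.2 TPM in controls, rose slightly, with a log2 fold change of 0.06 (limma adjusted p = 0.0131, SE 0.02). That call was lost without Treg co-culture 2 (adjusted p = 0.0515), without the trend (0.216) and under quantile normalization (log2 fold change 0.02, adjusted p = 0.349). P4hb transcripts outnumbered the alpha subunit transcripts in each library, at 2.07, 2.03 and 2.06 P4hb TPM per summed P4ha TPM in co-culture 1 to 3 and 1.87, 1.93 and 1.91 in control 1 to 3. This ratio was chosen after the values were seen.

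Of the lysyl hydroxylases, Plod2 had the deepest fall. Plod2 (26432, chromosome 9) hydroxylates lysines in the telopeptides, the non-helical ends of the chain, a step that decides which type of cross-link forms. It had 326, 340 and 333 TPM in Treg co-culture 1 to 3, against 475, 458 and 471 TPM in control 1 to 3. The highest co-culture value lay more than 100 TPM under the lowest control value, and the log2 fold change was -0.49 (limma adjusted p = 3.41e-07, SE 0.03). Only 4.43% of all genes tested had a lower log2 fold change. Plod1 (18822, chromosome 4), which acts on lysines within the helix, had 114, 115 and 114 TPM after co-culture and 120, 129 and 128 TPM in controls. It fell by 0.14 on the log2 scale (limma adjusted p = 0.0108, SE 0.04), with groups that did not overlap. Plod3 (26433, chromosome 5), which also adds sugars to hydroxylysine, had 212, 214 and 224 TPM in co-culture libraries and 229, 238 and 233 TPM in controls. Its log2 fold change was -0.11 (limma adjusted p = 0.0214, SE 0.03), and the call was lost without Treg co-culture 1 (adjusted p = 0.0795), Treg co-culture 2 (0.0693), control 2 (0.0753) or control 3 (0.0516). Without the mean-variance trend neither Plod1 (0.0511) nor Plod3 (0.106) passed.

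Plod2 held a smaller share of the lysyl hydroxylase transcripts after co-culture, with 50.0%, 50.8% and 49.6% in Treg co-culture 1 to 3 and 57.6%, 55.5% and 56.6% in control 1 to 3. Plod3 made up 32.5%, 32.0% and 33.5% in co-culture libraries, against 27.8%, 28.8% and 28.0% in controls, and Plod1 17.2% ± 0.264 after co-culture, against 15.2% ± 0.565 in controls (SD, n = 3 each). None of the 3 shares overlapped between the groups (exact two-sided permutation p = 0.1 each). As parts of 1 sum they are not separate results, and Plod1 and Plod3 both fell in TPM while their shares rose. The summed Plod TPM was 664 ± 11.0 after co-culture and 827 ± 3.90 in controls, 19.8% lower, whereas the summed P4ha TPM was 647 ± 10.8 after co-culture and 668 ± 4.28 in controls, 3.16% lower (SD, n = 3 each). Both sums were chosen after the values were seen.

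**Figure D2:**
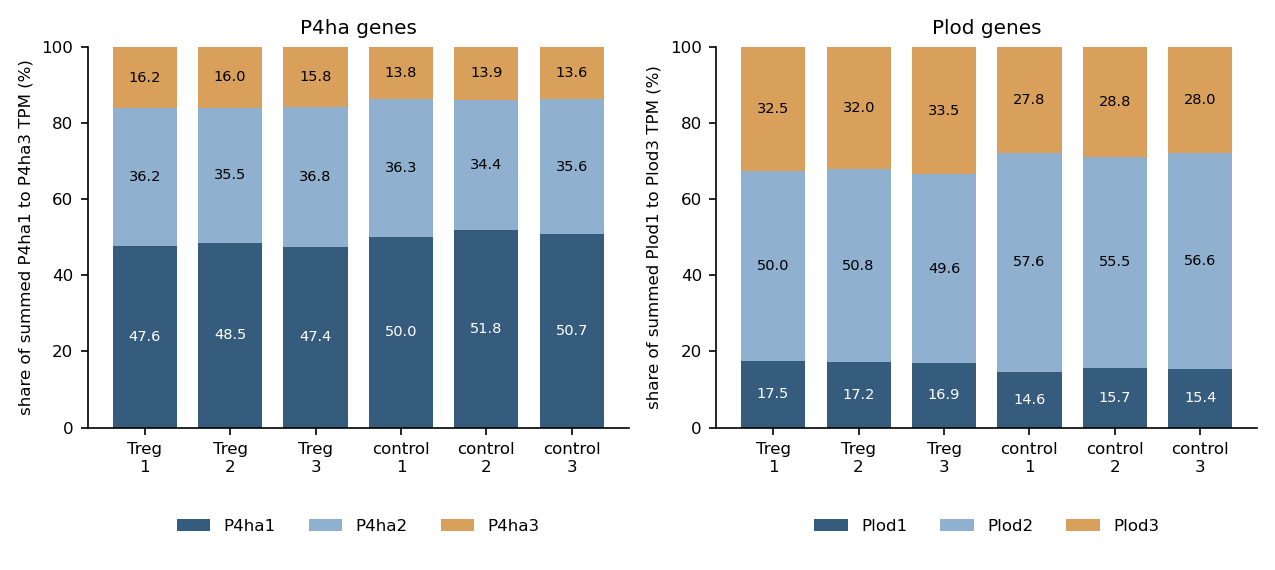
Share (y axis, percent) of each gene in the summed TPM of P4ha1 to P4ha3 (left) and Plod1 to Plod3 (right), 1 bar per library, with the 3 Treg co-culture libraries left of the 3 controls. Plod2 fills 49.6% to 50.8% of the co-culture bars and 55.5% to 57.6% of the control bars; P4ha3 fills 15.8% to 16.2% of the co-culture bars and 13.6% to 13.9% of the control bars.

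Crtap (56693, chromosome 9) encodes the cartilage-associated protein, which forms a complex with the prolyl 3-hydroxylase P3h1 and the isomerase Ppib that modifies single prolines and helps the chains fold. Crtap had 207, 207 and 200 TPM in Treg co-culture 1 to 3, against 218, 243 and 221 TPM in control 1 to 3. The groups did not overlap although control 2 lay above the other controls, and the log2 fold change was -0.15 (limma adjusted p = 0.0150, SE 0.04). The call was lost without Treg co-culture 3 (adjusted p = 0.0538) and without the trend (0.0795). Its partners did not pass the test under the main scaling: P3h1 was at 124 ± 4.39 TPM after co-culture and 118 ± 3.40 TPM in controls, and Ppib at 462 ± 3.15 TPM after co-culture and 482 ± 8.39 TPM in controls (SD, n = 3 each). The Ppib groups did not overlap, and Ppib (log2 fold change -0.06, limma adjusted p = 0.0544) was called lower under 3 other scalings (adjusted p = 0.0439, 0.0067 and 0.0407). Crtap TPM per P3h1 TPM, a ratio chosen after the values were seen, was 1.66, 1.62 and 1.68 in co-culture libraries and 1.89, 2.10 and 1.82 in controls, with no overlap between the groups (exact two-sided permutation p = 0.1).

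Serpinh1 (12406, chromosome 7) encodes HSP47, the ER chaperone that binds folded procollagen and travels with it to the Golgi. It was the most abundant of the 10 genes, at rank 32 or 33 of all genes in each library. It had 2737, 2793 and 2777 TPM in Treg co-culture 1 to 3 and 2849, 2895 and 2889 TPM in control 1 to 3. The co-culture values lay just under the controls, and the log2 fold change of -0.06 (limma adjusted p = 0.0166, SE 0.02) was the smallest of the 7 falls. The call of this small fall depended on the processing. It was lost without the trend (limma adjusted p = 0.283) and with no filter (0.0539). The same held without Treg co-culture 1 (0.0721), control 2 (0.0554) or control 3 (0.0554). Quantile normalization, which gives each rank 1 shared value, returned a log2 fold change of 0.00. Serpinh1 held ranks 32, 32 and 33 in Treg co-culture 1 to 3 and 33, 32 and 32 in control 1 to 3. With the same set of ranks in both groups, that setting could not show a fall.

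Outside the cell, Bmp1 and Pcolce changed in opposite directions. Bmp1 (12153, chromosome 14) is the metalloproteinase that removes the C-terminal propeptide of fibrillar procollagens, and Pcolce (18542, chromosome 5) binds that propeptide and speeds the cut. Pcolce had 716, 740 and 734 TPM in Treg co-culture 1 to 3, against 961, 1003 and 999 TPM in control 1 to 3. It fell by 0.43 on the log2 scale (limma adjusted p = 3.99e-07, SE 0.02), and 5.81% of all genes tested had a lower log2 fold change. Bmp1 had 239, 250 and 250 TPM in co-culture libraries and 210, 223 and 220 TPM in controls. Each co-culture library exceeded each control, and the log2 fold change was 0.18 (limma adjusted p = 0.00180, SE 0.03). Pcolce TPM per Bmp1 TPM, a ratio chosen after the values were seen, was 3.00, 2.96 and 2.94 in co-culture libraries, against 4.57, 4.50 and 4.54 in controls, 34.6% lower in the mean (exact two-sided permutation p = 0.1).

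Paralogs of this pair were scarce. Pcolce2, which also enhances C-propeptide removal, was at 27.7 ± 1.50 TPM after co-culture and 25.1 ± 0.762 TPM in controls (SD, n = 3 each), with a log2 fold change of 0.13 that did not pass (limma adjusted p = 0.1). The Bmp1 relative Tll1 was at 5.34 ± 0.352 TPM after co-culture and 3.59 ± 0.665 TPM in controls, and rose by 0.47 on the log2 scale (limma adjusted p = 0.0149, SE 0.13). That call was lost without Treg co-culture 2 (adjusted p = 0.0551) or control 3 (0.0526). Tll2 stayed under the filter, at no more than 0.050 TPM in any library.

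The order of the members by level was nearly the same in both groups. Serpinh1, Pcolce, Plod2 and P4ha1 led in both groups, and Plod1 and P4ha3 stood at the end, each with no overlap in range with its neighbours. Bmp1 took place 5 in Treg co-culture, above P4ha2, Plod3 and Crtap with no overlap between neighbours, and place 8 in controls. In controls P4ha2, Plod3, Crtap and Bmp1 averaged 237, 233, 227 and 218 TPM, and each overlapped the next in range, so their order there is within the spread of the libraries. All 10 were abundant: P4ha3, the lowest, exceeded 86.3% of all genes tested in mean level and Serpinh1 99.7%.

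The main substrates fell too. Col1a1 and Col1a2, the chains of type I collagen, had log2 fold changes of -0.17 (SE 0.03) and -0.20 (SE 0.02), and the type III chain Col3a1 -0.49 (SE 0.02), with limma adjusted p from 1.80e-08 to 0.00167. Of 9 fibrillar chains tested 7 fell and 2 did not pass; the 7 included the type V chains Col5a1 (-0.34) and Col5a3 (-0.82). The summed TPM of Col1a1, Col1a2 and Col3a1 was 15260, 15860 and 15579 in Treg co-culture 1 to 3, against 18075, 18904 and 19091 in control 1 to 3, 16.7% lower in the mean. Under quantile normalization the log2 fold changes of Col1a1 and Col1a2 were -0.01 (limma adjusted p = 0.751) and 0.00 (0.777). In that setting 5 of the fibrillar chains were called lower. Quantile normalization gives each rank a shared value, so it can hide a fall in genes as abundant as Col1a1 and Col1a2. Each exceeded 99.9% of all genes tested in mean level. Under median-of-ratios scaling both stayed called lower, with log2 fold changes of -0.18 and -0.20.

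Set against that sum, most of the 10 genes stood higher after co-culture. The sum itself was 16.7% lower, so a gene of unchanged TPM also comes out higher on this measure. Of the genes that stood higher, only Bmp1 and P4ha3 had risen in TPM. Per 1000 TPM of the 3 chains, Serpinh1 had 178 ± 1.64 TPM in Treg co-culture and 154 ± 3.24 TPM in control libraries, and Bmp1 had 15.8 ± 0.201 TPM in co-culture and 11.7 ± 0.137 TPM in control libraries (SD, n = 3 each). On this measure P4ha3 stood at 6.65 ± 0.126 TPM after co-culture and 4.92 ± 0.187 TPM in controls, 35.1% higher. P4ha2, which alone had missed the test on TPM, stood at 15.0 ± 0.248 TPM after co-culture and 12.7 ± 0.738 TPM in controls. P4ha1, Plod1 and Plod3 were 8.73% to 11.6% higher per collagen transcript, with no overlap between groups, while Crtap overlapped (exact two-sided permutation p = 0.2). Plod2 and Pcolce were the 2 genes that were lower on this measure as well: Plod2 had 21.4 ± 0.0506 TPM per 1000 collagen TPM after co-culture and 25.1 ± 1.07 in controls, and Pcolce had 46.9 ± 0.239 after co-culture and 52.8 ± 0.462 in controls (SD, n = 3 each). For the 9 genes other than Crtap the exact two-sided permutation p was 0.1, the smallest possible. These ratios were not recomputed under quantile normalization, where the falls of Col1a1 and Col1a2 were lost. That setting can hide falls of genes this abundant.

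**Figure D3:**
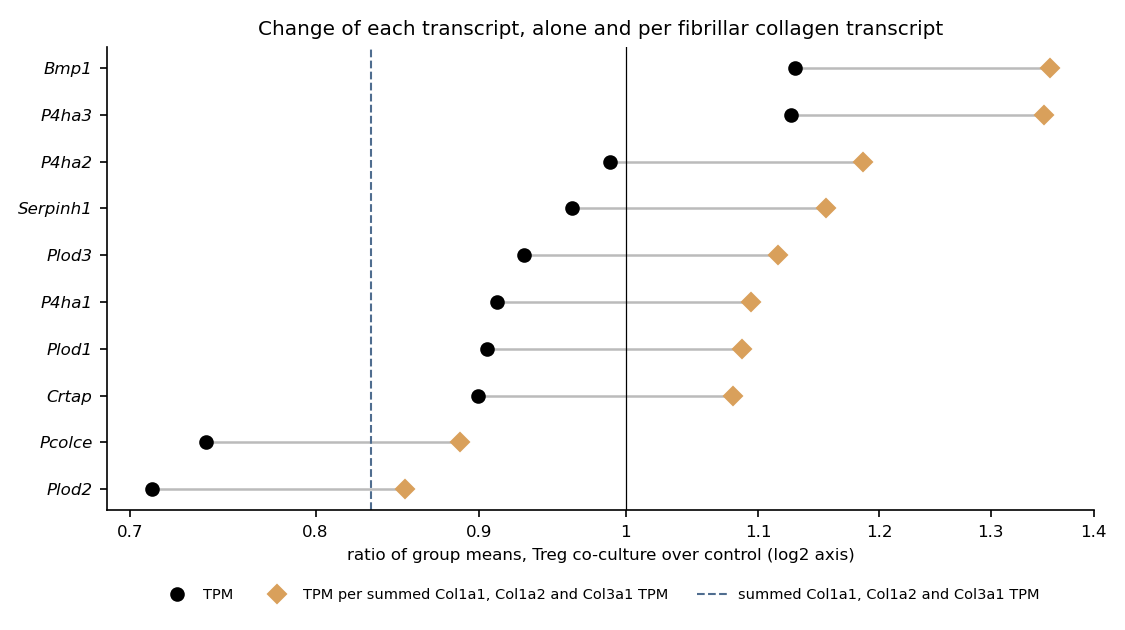
Ratio of group means, Treg co-culture over control (x axis, log2 scale), of each gene's TPM (black circles) and of its TPM per summed Col1a1, Col1a2 and Col3a1 TPM (orange diamonds); the dashed line marks the collagen sum itself. The diamonds of Plod2 and Pcolce lie left of 1, and those of the other 8 genes right of it.

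Other genes that act on procollagen moved both ways. Of 33 genes tested from a list of 35, 9 rose, 7 fell and 17 did not pass, with a median log2 fold change of 0.00. Among the enzymes that cut the N-terminal propeptide, Adamts2 fell to 168 ± 2.52 TPM after co-culture, against 243 ± 7.14 TPM in controls, while the much scarcer Adamts14 rose to 7.59 ± 0.260 TPM, against 4.40 ± 0.574 TPM (SD, n = 3 each). Among the lysyl oxidases, which form the cross-links from lysine and hydroxylysine, Lox fell to 3869 ± 36.5 TPM, against 4679 ± 77.9 TPM in controls. Loxl3 (0.75), Loxl4 (0.50) and Loxl2 (0.26) rose on the log2 scale, and Loxl1 did not pass (-0.09, limma adjusted p = 0.0552). Loxl1 was called lower with the replicate block (adjusted p = 0.0395), under 3 other scalings (0.0226 to 0.0459) and without Treg co-culture 2 (0.0440) or control 1 (0.0177). Lox exceeded each of the other lysyl oxidases in TPM in both groups.

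Further falls in that list, as log2 fold changes, were in the collagen-binding glycoprotein Sparc (-0.31), the ER calcium-binding protein Rcn3 (-0.21) and the ER isomerase Fkbp7 (-0.34). Kdelr2, a receptor that returns ER residents such as HSP47 from the Golgi, rose (0.12). The limma adjusted p of the genes named in this list as changed ran from 4.66e-08 for Sparc to 0.0149 for Tll1.

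**Figure D4:**
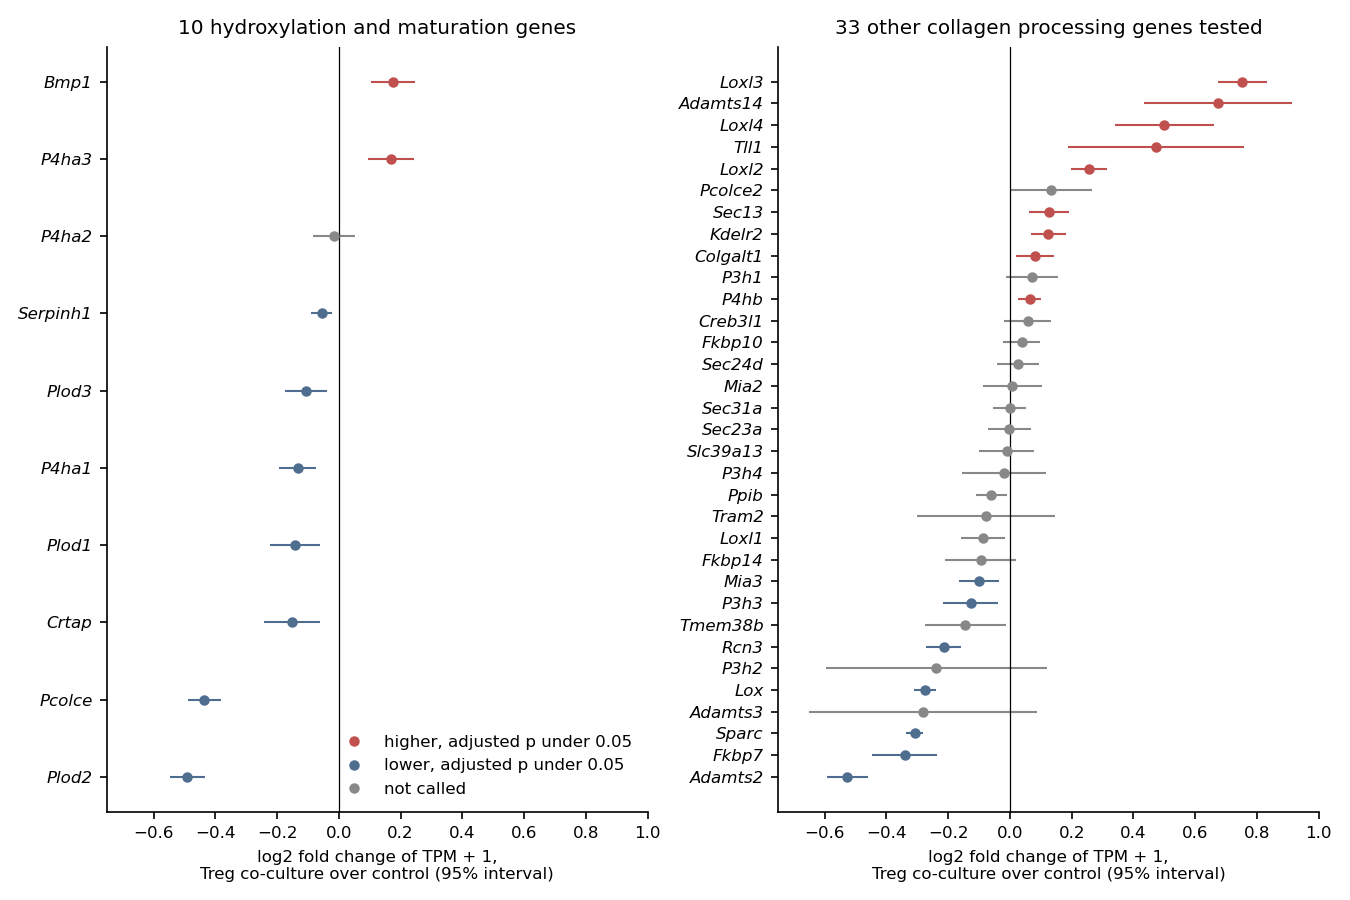
Log2 fold change of TPM + 1, Treg co-culture over control (x axis), with limma's 95% interval, for the 10 genes (left) and the 33 other collagen processing genes tested (right). Red marks genes called higher, blue genes called lower and grey genes that did not pass; Plod2 (-0.49) and Pcolce (-0.43) lie apart from the other 8 members on the left.

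Bmp1 also cuts or binds other matrix proteins. Of 12 such substrates and partners tested, 7 fell and 1 rose (2 rose without control 1), with a median log2 fold change of -0.22. The proteoglycans Dcn (-0.82) and Ogn (-0.85) and the matricellular protein Postn (-0.54) had the lowest adjusted p of that list.

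Several members, P4ha1, P4ha2, Plod1 and Plod2 among them, are known targets of the hypoxia-inducible factor HIF-1, so a list of hypoxia response genes was set beside them. Of 21 tested, 6 rose, 7 fell and 8 did not pass, with a median log2 fold change of -0.01. The peptide gene Adm (-1.23) and Ndrg1 (-0.72) fell, and the glycolytic gene Ldha rose (0.29). Of 11 other 2-oxoglutarate dioxygenases, which use the same cofactors, Jmjd6 rose (0.22), Ogfod2 (-0.43) and P4htm (-0.35) fell, and 4 were lower in all. With each of the 6 libraries left out in turn, 0 to 2 of them were lower in limma at an adjusted p of 0.05, with 0 in the fit without Treg co-culture 3, and 3 or 4 at an unadjusted p under 0.05.

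The sequences upstream of the start sites are shown for 4 members that differ in level or direction: P4ha1 and P4ha3, paralogs that moved in opposite directions, Pcolce, the deepest fall among members with a listed promoter, and Serpinh1, the most abundant. They are the 250 bases before the start in the RefSeq promoter table of GRCm38.p6, read 5′ to 3′ on the gene's strand. Of the 10 genes 8 had an entry in that table; Bmp1 and Plod2 had none. Capitals mark 3 short motifs on either strand: ACGTG, the core bound by HIF and also part of some E-boxes, CCAAT, the core of the CCAAT box, and GGGCGG, the GC box bound by Sp1. The windows lie at chr10:59323046-59323295 (plus strand), chr7:100285270-100285519 (plus strand), chr5:137611405-137611654 (minus strand) and chr7:99353240-99353489 (minus strand).
P4ha1: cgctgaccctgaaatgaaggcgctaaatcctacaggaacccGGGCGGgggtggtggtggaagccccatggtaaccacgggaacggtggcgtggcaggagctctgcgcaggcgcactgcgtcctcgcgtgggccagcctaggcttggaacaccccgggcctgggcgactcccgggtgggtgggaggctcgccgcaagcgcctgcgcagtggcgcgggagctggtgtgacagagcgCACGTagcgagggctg
P4ha3: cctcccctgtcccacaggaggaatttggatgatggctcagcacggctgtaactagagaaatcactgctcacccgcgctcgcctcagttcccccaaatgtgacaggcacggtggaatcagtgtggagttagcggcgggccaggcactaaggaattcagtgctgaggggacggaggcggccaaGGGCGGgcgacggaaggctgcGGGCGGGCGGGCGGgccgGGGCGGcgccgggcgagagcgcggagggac
Pcolce: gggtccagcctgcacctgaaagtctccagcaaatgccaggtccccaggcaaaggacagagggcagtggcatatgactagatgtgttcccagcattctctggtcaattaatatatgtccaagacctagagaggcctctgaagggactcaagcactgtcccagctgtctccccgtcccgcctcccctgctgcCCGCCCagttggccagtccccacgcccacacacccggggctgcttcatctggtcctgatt
Serpinh1: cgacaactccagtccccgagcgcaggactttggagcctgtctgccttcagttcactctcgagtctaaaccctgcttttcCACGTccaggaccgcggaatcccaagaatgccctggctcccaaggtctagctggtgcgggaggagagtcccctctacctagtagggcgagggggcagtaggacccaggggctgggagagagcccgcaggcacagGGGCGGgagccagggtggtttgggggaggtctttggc

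ACGTG was found in 4 of the 8 windows (P4ha1, P4ha2, Plod3 and Serpinh1), against 16.6% of all 32851 windows of the table. GGGCGG was found in 6 (P4ha1, P4ha2, P4ha3, Pcolce, Plod1 and Serpinh1), against 32.7% of all windows, and CCAAT in 1 (Plod3), against 33.8%. The 8 windows held 53.6% to 70.0% G and C, and the windows they are set against were not matched for base content. Enrichment of a motif was not tested. GCGTG was not counted, so a window without ACGTG may still hold a core bound by HIF. For Crtap the bases just after the listed start were found in no annotated transcript of the gene, so its window is uncertain. P4ha3 held 5 matches of GGGCGG, 3 of them overlapping each other, and no ACGTG. In the 4 windows shown no match of 1 motif overlapped a match of another. On chromosome 7 the starts of P4ha3 and Serpinh1 lie 932 kb apart, and on chromosome 5 those of Plod3 and Pcolce 624 kb apart, by the same table. The first pair moved in opposite directions and the second in the same direction.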

How the data were processed

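Messenger RNA of 6 libraries (Treg co-culture and control, 3 each) was sequenced after Trizol extraction and bead capture, per the labels' protocols. The authors deposited TPM values per gene, named by NCBI Gene number, and each library sums to 1000000. The builds GRCm38, mm10 and GRCm39 are named without a role in the submitters' processing notes; which aligner, counter and annotation were used is not stated in the labels, nor how reads common to several paralogs were handled. Of 22186 gene numbers, 21992 matched a symbol in a RefSeq table of GRCm38.p6. No 2 libraries shared more than 60 identical values among 13935 genes.

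TPM + 1 was log2-transformed, so changes of low genes are understated. Genes averaging 1 TPM or more were tested with limma 3.58.1 in R 4.3.3 (eBayes with trend, no block) and Benjamini-Hochberg adjustment over all genes; SE and 95% intervals are limma's moderated ones. Shares, ratios and sums were compared with exact permutation over all 20 ways to split the libraries 3 and 3. Python 3.11.15, pandas 2.3.3 and matplotlib 3.10.9 were used.

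The members and lists were chosen with earlier results of these data known. Genes outside the 10 members were named by a fixed rule: in the list of other processing genes, up to 5 per direction with the lowest adjusted p plus P4hb, P3h1, Ppib, Pcolce2, Tll1 and Tll2; in each other list, up to 3 with the lowest adjusted p, plus Col1a1 and Col1a2. Loxl1 was named after its value was seen. Libraries of the same number share a batch, per the labels; their deviations from the group means correlated at 0.0115, -0.0146 and 0.00402. The fit with batch as a block and the other settings are given at the end.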

Additional observations from a re-analysis of the deposited data

How the results depend on the processing

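Plod2, Pcolce, P4ha1, P4ha3 and Bmp1 kept their direction and their call under each alternative run: smaller pseudocounts (0.1, 0.01), all genes kept or only those over 5 TPM, 3 other scalings (median of ratios, quantile, and TPM recomputed after dropping 13 mitochondrial and 85 ribosomal protein genes), eBayes robust or with no trend, thresholds of 0.01 and 0.1, the replicate block, and the omission of each library. P4ha2 passed under none. The replicate block changed no call among the 10 genes, with log2 fold changes of -0.49 for Plod2 and -0.43 for Pcolce (adjusted p = 1.29e-05 and 2.60e-06 in limma). Of the other genes named, the block changed the call of Loxl1 alone. The scalings moved the median of all genes by less than 0.1.

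At a threshold of 0.01 the members called lower numbered 3, and all genes called 1626 higher and 1417 lower; Plod1 (-0.14), Plod3 (-0.11), Serpinh1 (-0.055) and Crtap (-0.15) no longer passed. The same 4 genes, with the same log2 fold changes, lost their calls without the trend (3 members lower), as did Serpinh1 with no filter (-0.055). The cause of these losses was not tested. Serpinh1 also lost its call under quantile normalization (0.00), where its equal set of ranks in both groups fixed that value. With 1 library left out, members called lower numbered 5 to 7 and higher 2 in each case, and the log2 fold changes ran from -0.130 to -0.088 for Plod3, from -0.063 to -0.047 for Serpinh1 and from -0.18 to -0.10 for Crtap. The isoform shares were recomputed with 1 library left out and from TPM + 1, and moved by less than the spread between replicates. The ratios to fibrillar collagen with 1 library left out did so too. Quantile normalization was applied neither to the shares nor to these ratios. With all fibrillar chains as the denominator, a larger sum, the differences per 1000 TPM kept their sign but were smaller, and the move exceeded the SD for 5 genes: 0.455 in place of 0.589 for Plod1, 3.41 in place of 4.15 for Bmp1, 1.42 in place of 1.73 for P4ha3, 19.1 in place of 23.9 for Serpinh1 and -5.27 in place of -5.93 for Pcolce. With pairs of 1 batch, the smallest exact p for a ratio is 0.25. Depth is unknown, so its limits cannot be given.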
